A study of Mus musculus with 12 samples.

Results

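Genes of the cochlear fibrocytes, the otic mesenchyme and the cochlear gap junctions were followed through the conversion of mouse cochlear glial spheres into neuron-like cells. They were Coch, Otor, Otos, Pou3f4, Tbx18, Gjb2 and Gjb6, taken by gene name as 7 of the 55487 genes in the deposited table. In the spheres, Otor, Gjb2, Pou3f4, Tbx18, Coch and Gjb6 stood at 65.5 TPM or more on average (transcript abundance corrected for length and for library total), and Otor was the 9th most abundant gene of the table. After 14 days in the small molecule medium FIBCL, Otor, Gjb2 and Gjb6 were below 1 TPM, Pou3f4 and Tbx18 kept 18.4% and 6.13% of their sphere levels, and Coch kept 32.8%. In the control media SCDM and SCDM/FGF, Otor, Coch, Gjb2 and Gjb6 were lower than in the spheres as well, while Pou3f4 in SCDM was at 95.8% of its sphere level and did not pass the test.

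RNA-seq was made from 12 libraries, 3 for each of 4 groups, and the labels call the 3 libraries of a group biological replicates. All came from cochleae of mice at postnatal day 4, on a mixed background of C57Bl6 and FVB/N, and the modiolus was kept after the stria vascularis, vestibule and organ of Corti had been cut away, with several mice of both sexes in a dissection. The spheres grew in SCM, a DMEM/F12 medium with B27, N2, EGF (20 ng/ml), bFGF (10 ng/ml), IGF (50 ng/ml) and heparan sulfate (50 ng/ml). In SCDM the same base medium carried the neurotrophins BDNF (50 ng/ml) and NT3 (50 ng/ml). SCDM/FGF also held bFGF at 100 ng/ml. FIBCL was a Neurobasal medium with B27, N2, bFGF and 5 further agents, and for its bFGF the labels list 50 and 100 ng/ml. These were Forskolin, which raises cyclic AMP, at 20 μM, the neurogenic small molecule ISX9 at 20 μM, the BET bromodomain inhibitor I-BET at 1 μM, the GSK3 inhibitor and Wnt activator CHIR99021 at 10 μM, and the cytokine LIF at 1000 U/ml. Differentiated cells were taken after 14 days. Base medium, growth factors and small molecules changed together between SCDM and FIBCL, so their effects cannot be told apart. Per the methods, spheres grew in suspension and were plated on poly-L-ornithine and laminin for differentiation. From the spheres to the other groups, medium, growth surface and time in culture therefore changed together, and their effects cannot be told apart either. The spheres were not sorted, so they held whatever modiolar cells grew in SCM.

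Fibrocytes are the connective tissue cells of the spiral ligament and the spiral limbus. They arise from periotic mesenchyme under transcription factors that include Pou3f4 and Tbx18, and they secrete matrix proteins such as cochlin, the product of Coch. Together with supporting cells and strial basal and intermediate cells they are joined by gap junctions, channels of connexin subunits of which Gjb2 and Gjb6 encode the main cochlear ones. This network is held to carry potassium and metabolites between the organ of Corti and the stria vascularis. Mutations of COCH, POU3F4, GJB2 and GJB6 cause inherited deafness in humans, and mice without Otos or Tbx18 do not hear normally.

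The genes lie on 6 chromosomes (GENCODE M21, GRCm38). Coch (ENSMUSG00000020953) is at chr12:51593341-51605771 on the plus strand and Otor (ENSMUSG00000027416) at chr2:143078473-143081713 on the plus strand. Otos (ENSMUSG00000044055) is at chr1:92644218-92648841 on the minus strand. Pou3f4 (ENSMUSG00000056854) is at chrX:110814280-110817207 on the plus strand, and Tbx18 (ENSMUSG00000032419) at chr9:87702800-87731260 on the minus strand, where D030062O11Rik, an unassigned transcript, overlaps it on the opposite strand. The connexin genes are neighbours on the minus strand of chromosome 14, Gjb2 (ENSMUSG00000046352) at chr14:57098600-57104702 and Gjb6 (ENSMUSG00000040055) at chr14:57123303-57133611, with 18600 bp between them that hold 1 other annotated gene, Gm4491. A further connexin gene, Gja3, lies beyond Gjb2 at chr14:57034460-57058100. Because Gjb2 and Gjb6 are close relatives, their coding sequences (681 and 786 bases) were aligned to see whether reads could be credited to the wrong gene. They were identical at 75.8% of 681 positions, with a longest identical run of 20 bases, and no stretch of 31 bases in the transcripts of either was found in another gene. The stretch around that run, coding bases 184 to 263, is shown for both because it holds the longest identical run, with the 66 of 80 identical bases in capitals.
Gjb2, chr14:57100487-57100566, minus strand: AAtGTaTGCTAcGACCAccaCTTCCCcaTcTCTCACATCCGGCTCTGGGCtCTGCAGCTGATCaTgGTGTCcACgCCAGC
Gjb6, chr14:57124540-57124619, minus strand: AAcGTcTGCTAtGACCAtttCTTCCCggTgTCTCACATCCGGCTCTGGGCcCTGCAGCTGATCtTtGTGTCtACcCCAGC
Coch, Otor and Otos also shared no stretch of 31 bases with another gene, against 1.24% of the stretches in Pou3f4 and 0.599% in Tbx18.

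The promoters of the genes with the steepest falls are shown next, as the 250 bases before the RefSeq start (GRCm38.p6), for a view of how unlike they are. All 7 genes had a promoter in the table. Matches to 5 motifs, searched on both strands, are in capitals: TATAAA (the TATA box), GGGCGG (the GC box), ATGCAAAT (the POU octamer), AGGTGTGA (a T-box site) and TGACGTCA (the cyclic AMP response element).
Otor, chr2:143078143-143078392, plus strand: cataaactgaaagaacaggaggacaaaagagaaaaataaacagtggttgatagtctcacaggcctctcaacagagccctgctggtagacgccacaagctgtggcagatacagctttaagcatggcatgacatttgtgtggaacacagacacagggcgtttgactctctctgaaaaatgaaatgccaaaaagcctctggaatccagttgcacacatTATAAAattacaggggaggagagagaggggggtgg
Gjb2, chr14:57104703-57104952, minus strand: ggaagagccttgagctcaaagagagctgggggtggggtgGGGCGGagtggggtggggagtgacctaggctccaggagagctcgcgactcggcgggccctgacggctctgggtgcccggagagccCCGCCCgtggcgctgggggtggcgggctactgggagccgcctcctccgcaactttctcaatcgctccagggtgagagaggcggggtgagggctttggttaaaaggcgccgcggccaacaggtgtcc
Gjb6, chr14:57133612-57133861, minus strand: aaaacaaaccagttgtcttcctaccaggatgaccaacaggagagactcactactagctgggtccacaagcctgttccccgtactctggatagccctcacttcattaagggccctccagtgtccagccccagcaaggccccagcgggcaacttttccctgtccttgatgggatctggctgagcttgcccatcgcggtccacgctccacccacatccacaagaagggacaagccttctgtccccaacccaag
Otor held a TATAAA that began 35 bases before the start, in a stretch of 46% GC with 2 CpG. Gjb2 held GGGCGG 211 bases and its reverse complement 126 bases before the start, with 69.2% GC and 18 CpG. Gjb6, its neighbour, held none of the 5 motifs, with 56.8% GC and 5 CpG. Coch was the other gene with a match, the GC box at 3 places, with 74.8% GC and 24 CpG. In none of the 7 windows was the octamer, the T-box site or the cyclic AMP element found, and no matches overlapped. Over 32851 promoters of the same length, 12.4% held TATAAA, 32.7% GGGCGG, 1.6% ATGCAAAT, 1.12% AGGTGTGA and 1.55% TGACGTCA, and the medians were 52.4% GC and 6 CpG.

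The deposited TPM summed to between 899295 and 911076 over the listed genes in FIBCL and to between 982067 and 994845 in the other groups. TPM keeps no read number, so the depth is unknown. Levels below are scaled TPM, in which each library was divided by its trimmed mean ratio to the average library. The scaling raised FIBCL and lowered the spheres, and the median log2 fold change over the table went from −0.51 to −0.06 for FIBCL against spheres, and from −0.40 to −0.07 for FIBCL against SCDM. Fold changes are differences of log2(scaled TPM + 1), which understates the change of genes near 0. Tests covered the 16016 genes that reached 1 TPM in 3 or more libraries. Of these, "passed" means an adjusted p under 0.05 in limma, and "changed" means passed with a log2 fold change of 1.5 or more in either direction. Of the changed genes, 44.2% were higher in FIBCL than in SCDM, against 30.7% on the deposited TPM, and the same shares were 41.6% against 30.9% for FIBCL and SCDM/FGF, 44.8% against 25.5% for FIBCL and spheres, and 68.2% against 56.5% for SCDM/FGF and spheres. The 7 genes all entered the test, but Otos did so only through the sphere libraries.

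The spheres, named glial in the labels, held the RNA of several cell types. All 9 fibroblast markers were at 1 TPM or more in every sphere library, with a summed level of 3502 to 3610 scaled TPM, beside 497 to 520 for 8 glial markers, all of them at 1 TPM or more. Fibroblast markers summed to 8710 to 9566 in SCDM, 7340 to 7599 in SCDM/FGF and 1279 to 1327 in FIBCL. There 8 of the 9 were changed and lower than in the spheres, beside 8.8% of all genes. Fn1, the fibronectin gene, averaged 1261 in FIBCL and so made nearly all of the fibroblast sum there. It averaged 822 in the spheres, and this rise did not pass on the deposited TPM (adjusted p = 0.479, limma). Glial markers summed to 161 to 188 in SCDM, 173 to 200 in SCDM/FGF and 16.8 to 22 in FIBCL. Macrophage markers (8 genes) summed to 90.7 to 109 in the spheres. In SCDM (1217 to 1334) and SCDM/FGF (1332 to 1466) all 8 passed as higher, beside 24.5% and 25% of all genes. In FIBCL their sum of 158 to 184 was mostly Cd68 (164.5), a lysosomal gene. There 6 of the 8 passed as lower than in the spheres, beside 38.7% of all genes, such as C1qa (22.7 to 0.385) and Csf1r (5.19 to 0.335). Cd68 was the 1 that passed as higher (36.6 to 164.5, log2 fold change 2.14, adjusted p = 1.68e-09, limma), beside 32.9% of all genes. Cartilage and bone markers (10 genes) summed to 669 to 723 in the spheres and 4460 to 4668 in SCDM, but to 86.4 to 124 in SCDM/FGF and 26.8 to 27.3 in FIBCL. Neuronal markers (8 genes) summed to 15.0 to 15.8, 18.8 to 21.6, 17.1 to 22.3 and 400 to 426 in spheres, SCDM, SCDM/FGF and FIBCL. Endothelial markers (6 genes) summed to 63.8 to 72.8 in the spheres and 101 to 113 in FIBCL, which Egfl7 carried (56.5 to 92.0). There 2 passed as higher and 3 as lower, Pecam1, Cdh5 and Cldn5, beside 32.9% and 38.7% of all genes. Of the 3, Cldn5 was listed at no more than 0.22 TPM outside the spheres. It entered the test through the spheres alone and had to be lower. Mural cell markers (5 genes) summed to 27.9 to 31 in the spheres, 236 to 316 in SCDM, 31.4 to 53.1 with bFGF and 7.71 to 7.96 with FIBCL, and the SCDM sum was mostly Tagln (168) and Acta2 (81.6), genes of contractile cells. The 8 markers of strial marginal cells and melanocytes summed to between 5.20 and 9.68 in every group. The 12 hair cell markers summed to 50.7 to 55.5 in the spheres, of which Slc17a8, a vesicular glutamate transporter gene, made 41.7, Pcdh15 5.93 and Myo7a 4.64, while Pou4f3 and Atoh1 were listed at 0 in all sphere libraries. The 9 markers of supporting cells and tectorial membrane summed to 18.0 to 23.0 in the spheres. In bulk RNA, fewer cells of a type and less RNA per cell cannot be told apart. The 7 genes changed between groups beside these sums, and the part of the other cell types in their values was not tested.

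Otor, which encodes otoraplin, a small secreted protein of the melanoma inhibitory activity (MIA) family, fell furthest. Its scaled TPM was 6443, 7228 and 6515 in the spheres, 931, 766 and 744 in SCDM, 159, 201 and 132 in SCDM/FGF, and 0.323, 0.554 and 0.223 in FIBCL. No libraries of different groups overlapped, so the order spheres, SCDM, SCDM/FGF, FIBCL held in every library. The mean was 6729 ± 434 (SD, n = 3) in the spheres, where Otor alone took 0.793% of the listed TPM, and 814 ± 102 (SD, n = 3) in SCDM, an 8.27-fold lower level (log2 fold change −3.05, SE 0.14, adjusted p = 1.71e-08, limma). In SCDM/FGF the mean of 164 ± 34.8 (SD, n = 3) was 41.1-fold below the spheres (log2 fold change −5.37, adjusted p = 2.75e-10). Only 2 of the 16016 genes had a lower fold change in that comparison. Between the control media the difference was −2.32 on the log2 scale (SE 0.14, adjusted p = 1.66e-07), a 4.97-fold lower level with bFGF added, where the cartilage and bone markers also summed lower. In FIBCL the mean was 0.367 ± 0.170 (SD, n = 3), and Otor went from 9th to 16506th place among the genes ordered by mean level. Its log2 fold change from the spheres, −12.27 (SE 0.14, adjusted p = 1e-13), was the lowest of all genes tested, and against SCDM and SCDM/FGF it was −9.22 and −6.90 (adjusted p = 6.64e-13 and 6.07e-12).

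**Figure D1:**
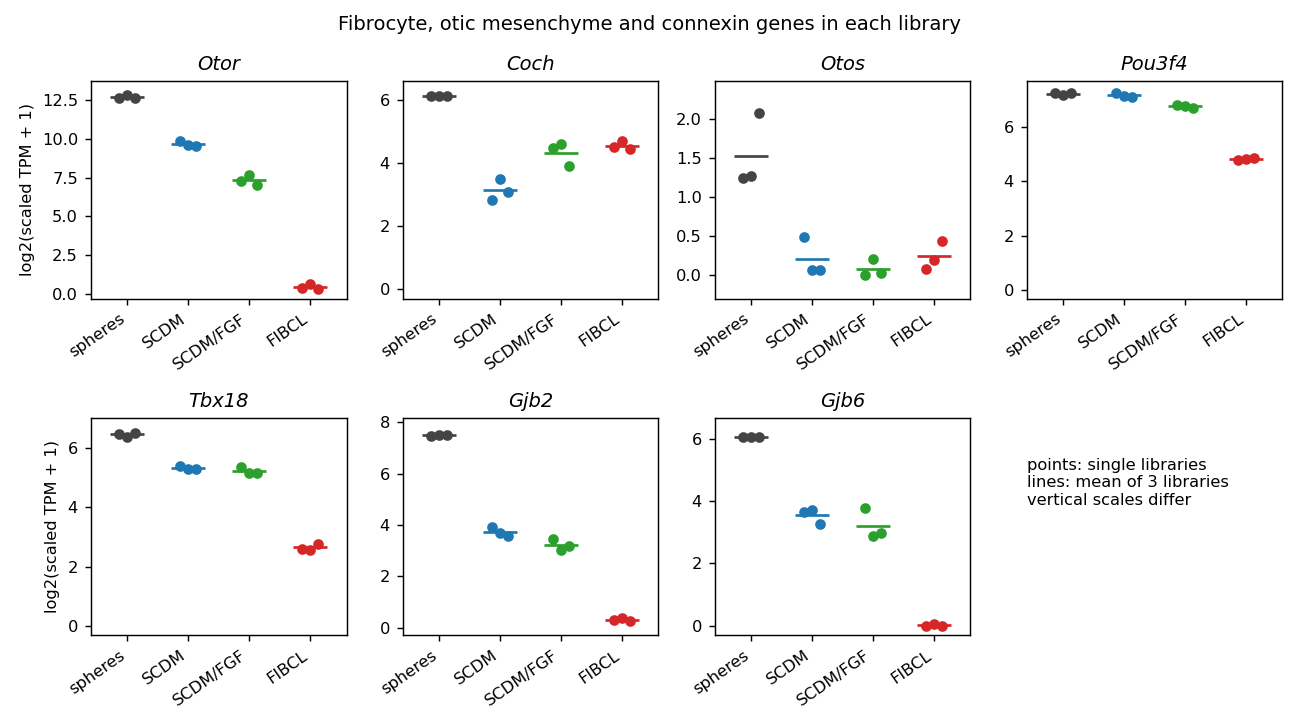
Level of each gene in the 12 libraries, as log2(scaled TPM + 1), with points for libraries and lines for the mean of 3. Otor steps down in each medium from 6729 scaled TPM in the spheres to 0.367 in FIBCL, whereas Coch is lowest in SCDM, at 7.90.

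Coch, whose product cochlin is a major matrix protein of the spiral ligament and limbus, followed another order. Its scaled TPM was 68.8, 67.9 and 68.5 in the spheres, 6.02, 10.3 and 7.35 in SCDM, 20.9, 23.3 and 14.0 in SCDM/FGF, and 21.5, 25.0 and 20.9 in FIBCL. The spheres lay above every differentiated library and SCDM below every library of the other groups, while SCDM/FGF and FIBCL overlapped. The fall from the spheres was −2.99 for SCDM (SE 0.19, adjusted p = 1.71e-07, limma), −1.80 in SCDM/FGF (adjusted p = 1.18e-05) and −1.57 in FIBCL (adjusted p = 1.53e-05) on the log2 scale. SCDM/FGF was higher than SCDM by 1.20 (adjusted p = 0.000331) and FIBCL by 1.42 (SE 0.19, adjusted p = 3.29e-05), which made Coch the only gene of the 7 to pass as higher in either comparison. Between FIBCL and SCDM/FGF Coch differed by 0.23 (95% confidence interval −0.19 to 0.64, adjusted p = 0.301), and its sign turned on the deposited TPM, to −0.074. Coch levels varied more between libraries in the control media (coefficient of variation 27.9% in SCDM and 25.0% in SCDM/FGF) than in the spheres (0.653%). Of the 9 fibroblast markers, 4 passed as higher and 4 as lower in SCDM than in the spheres, beside 24.5% and 25.8% of all genes. The former were led by Col1a2 (492 to 3385) and Fn1 (822 to 3197). The latter were Dcn (850 to 536), Lum (290 to 148), Pdgfra (128 to 60.8) and Fbln1 (240 to 165).

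Otos encodes otospiralin, a small secreted protein of fibrocytes, and was at the edge of detection. The deposited TPM were 1.62, 1.61 and 3.85 in the spheres, 0.42, 0.05 and 0.05 in SCDM, 0, 0.15 and 0.02 in SCDM/FGF, and 0.05, 0.12 and 0.27 in FIBCL. The sphere libraries were thus the only ones at 1 TPM or more, and a gene that enters the test through such a group had to differ from the rest. The log2 fold changes from the spheres were −1.33 for SCDM, −1.45 for SCDM/FGF and −1.29 for FIBCL (SE 0.22 each, adjusted p = 0.000373, 0.000192 and 0.000242, limma), and with a pseudocount of 0.1 they were −3.14, −3.75 and −2.89. Without any 1 sphere library Otos could not be tested. The media overlapped in Otos, with adjusted p = 0.896 for FIBCL against SCDM, 0.524 for FIBCL against SCDM/FGF and 0.678 for SCDM/FGF against SCDM.

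The transcription factor genes had the smallest standard errors of the 7. Pou3f4, a POU domain factor of the otic mesenchyme, had scaled TPM of 150, 145 and 153 in the spheres, 151, 141 and 136 in SCDM, 111, 107 and 103 in SCDM/FGF, and 26.8, 27.3 and 27.9 in FIBCL. Spheres and SCDM overlapped, and the log2 difference was −0.06 (95% confidence interval −0.16 to 0.04, adjusted p = 0.293, limma), although on the deposited TPM it was −0.21 and passed (adjusted p = 0.00875). SCDM/FGF was lower than both, by −0.47 against the spheres (SE 0.046, adjusted p = 6.67e-06) and −0.41 against SCDM (adjusted p = 2.38e-05). In FIBCL Pou3f4 was 27.3 ± 0.566 (SD, n = 3), a log2 fold change of −2.40 from the spheres, −2.34 from SCDM and −1.93 from SCDM/FGF (adjusted p = 3.95e-12, 4.22e-12 and 1.89e-11). It was the most abundant of the 7 genes in FIBCL, though in no other group.

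Tbx18, a T-box factor needed for otic fibrocytes to form, had scaled TPM of 87.4, 81.1 and 89.9 in the spheres, 40.6, 38.1 and 37.8 in SCDM, 39.6, 34.8 and 34.6 in SCDM/FGF, and 5.09, 4.95 and 5.81 in FIBCL. The levels formed 3 steps, since SCDM and SCDM/FGF overlapped (log2 difference −0.09, 95% confidence interval −0.25 to 0.06, adjusted p = 0.324, limma). From the spheres Tbx18 fell by 1.13 in SCDM (SE 0.072, adjusted p = 1.85e-07), by 1.22 in SCDM/FGF (adjusted p = 1.05e-07) and by 3.79 in FIBCL (adjusted p = 3.6e-12) on the log2 scale. Against SCDM and SCDM/FGF the FIBCL level was lower by a log2 fold change of −2.67 and −2.57 (adjusted p = 4.13e-11 and 5.93e-11). Pou3f4 and Tbx18 were far below Otor in the spheres and above it in every FIBCL library.

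Gjb2 was the most abundant connexin gene of the spheres. Its scaled TPM was 177, 181 and 182 in the spheres, 14.1, 12.0 and 11.0 in SCDM, 10.1, 7.18 and 8.18 in SCDM/FGF, and 0.239, 0.296 and 0.184 in FIBCL. No groups overlapped. Against the spheres it was 14.5-fold lower in SCDM (log2 fold change −3.77, SE 0.11, adjusted p = 6.37e-10, limma) and 21.2-fold lower in SCDM/FGF (log2 fold change −4.27, adjusted p = 2.44e-10), and 16 and 10 of the 16016 genes had a lower fold change in these comparisons. In FIBCL the log2 fold change from the spheres was −7.19 (adjusted p = 7.73e-13). It was −3.43 from SCDM and −2.93 from SCDM/FGF (adjusted p = 1.95e-10 and 7.6e-10), or −5.20 and −4.66 with a pseudocount of 0.1. SCDM/FGF was slightly below SCDM (log2 fold change −0.50, adjusted p = 0.0037).

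Gjb6 had scaled TPM of 65.1, 65.5 and 65.9 in the spheres, 11.6, 12.1 and 8.69 in SCDM, and 12.7, 6.41 and 6.86 in SCDM/FGF. In FIBCL the deposited TPM were 0, 0.04 and 0. Sphere libraries were the highest and FIBCL the lowest throughout, and SCDM overlapped with SCDM/FGF. The log2 fold change from the spheres was −2.51 in SCDM (SE 0.20, adjusted p = 1.19e-06, limma), −2.84 in SCDM/FGF (adjusted p = 4.6e-07) and −6.03 in FIBCL (adjusted p = 2.45e-10). FIBCL lay below SCDM by −3.53 and below SCDM/FGF by −3.19 (adjusted p = 2.1e-08 and 5.38e-08). These fitted values rest on the pseudocount, and with 0.1 the fold changes of FIBCL were −9.16 from the spheres, −6.56 from SCDM and −6.19 from SCDM/FGF. Between the control media the difference was −0.34 (95% confidence interval −0.78 to 0.11, adjusted p = 0.207), and without SCDM/FGF replicate 1, its highest library, it was −0.62 and passed (adjusted p = 0.00223).

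The level of Gjb2 over that of Gjb6 was 2.75 ± 0.0274 in the spheres (SD, n = 3), 1.16 ± 0.149 in SCDM and 1.04 ± 0.213 in SCDM/FGF. The sphere ratios, from 2.72 to 2.77, lay above every ratio of the control media, from 0.793 to 1.26, so Gjb2 was lower by a larger factor than Gjb6 in both media. No ratio is given for FIBCL, where Gjb6 was listed at 0 in 2 libraries.

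Other connexin genes did not all follow. Of the 20 connexin genes in the table, Gjb2 and Gjb6 included, 7 entered the test, and 3 passed as higher and 4 as lower in FIBCL than in SCDM, where 32.7% and 39% of all genes did (median log2 fold change −0.52, against −0.07 over all genes tested). Of the 3, Gja3 entered the test only through the FIBCL libraries and had to be higher. Gja1, a connexin gene of connective tissue and astrocytes, was at 42.5 ± 1.22 scaled TPM in the spheres and 15.6 ± 2.40 in SCDM, and at 167 ± 29.7 with bFGF and 270 ± 7.07 with FIBCL (SD, n = 3). It was higher in FIBCL by 4.04 against SCDM and by 2.64 against the spheres on the log2 scale (SE 0.12, adjusted p = 1.16e-10 and 4.45e-09, limma), and higher in SCDM/FGF than in SCDM by 3.34 (adjusted p = 2.52e-09). Gja3, the neighbour of Gjb2 on chromosome 14 and a connexin gene known from the lens, was listed at no more than 0.12 TPM outside FIBCL and averaged 5.88 there. Gja4 averaged 0.982, 0.374, 5.55 and 2.17 in spheres, SCDM, SCDM/FGF and FIBCL, and passed as higher in FIBCL than in SCDM (log2 fold change 1.20, adjusted p = 2.04e-05). Gjc3, a glial connexin gene, went from 6.94 in the spheres to 0.041 in FIBCL (log2 fold change −2.93, adjusted p = 4.91e-10), and Gjc1 from 32.7 to 15.7 (−1.05, adjusted p = 0.000175). From the spheres to SCDM 0 of the 7 passed as higher and 6 as lower, beside 24.5% and 25.8% of all genes. From SCDM to SCDM/FGF 3 passed as higher and 1 as lower, beside 21.8% and 21.3%. The summed scaled TPM of the 20 genes was 322 to 336 in the spheres and 284 to 305 in FIBCL, against 60.6 to 69.1 in SCDM and 190 to 245 in SCDM/FGF. The FIBCL total lay nearer to that of the spheres than the SCDM total did, but through other genes. Gja1 (270) made most of it, whereas Gjb2 (180) and Gjb6 (65.5), which led in the spheres, averaged 0.240 and 0.016 in FIBCL.

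**Figure D2:**
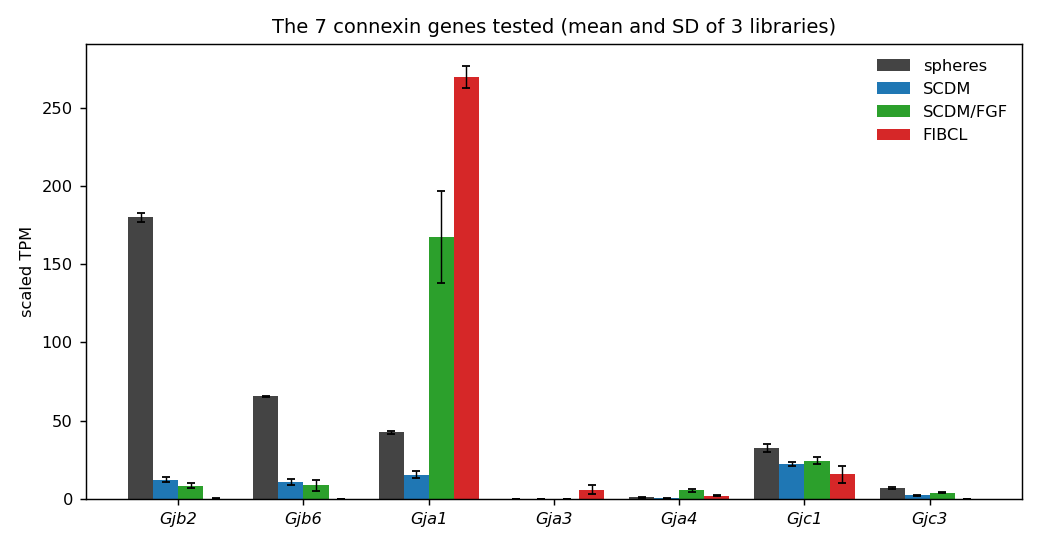
Scaled TPM of the 7 connexin genes tested, as bars for the mean and error bars for the SD of 3 libraries in each group. Gjb2 (180) and Gjb6 (65.5) lead in the spheres, and Gja1 (270) leads in FIBCL.

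Among the pannexin genes, which encode related large-pore channels, 2 of 3 entered the test. Panx1 averaged 10.4, 10.9, 12.7 and 27.2 scaled TPM in spheres, SCDM, SCDM/FGF and FIBCL and passed as higher in FIBCL than in SCDM (log2 fold change 1.24, adjusted p = 3.05e-05, limma). Panx3 averaged 1.41 in the spheres and was listed at 0 in FIBCL.

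Counts of the 7 genes are given beside those of all 16016 genes tested. In FIBCL against the spheres, 6 of the 7 were changed and lower, where 8.8% of all genes were, and all 7, or 6 without Otos, passed as lower (38.7% of all genes) with libraries that did not overlap (40.4%). In SCDM against the spheres, Otor, Coch, Gjb2 and Gjb6 were changed and lower, 4 genes against a background of 2.42%. There 6, or 5 without Otos, passed as lower (25.8%) and the same genes, all but Pou3f4, did not overlap (30.3%). In SCDM/FGF those 4 were again changed and lower (1.92%), and all 7, or 6 without Otos, passed as lower (25.4%) without overlap (29.3%). FIBCL against SCDM had 5 changed and lower genes, Otor, Pou3f4, Tbx18, Gjb2 and Gjb6 (9.98% of all genes), which are also those that passed as lower (39%) and did not overlap (40.7%). Coch was the 1 gene there that passed as higher (32.7%) and did not overlap (34%). Against SCDM/FGF, FIBCL had the same 5 changed and lower (9.8%), with 5 that passed as lower (38.2%) and 5 that did not overlap (39.2%). Between SCDM/FGF and SCDM, 1 gene, Otor, was changed and lower (1.97%). Otor, Pou3f4 and Gjb2 passed as lower there (21.3%) without overlap (26.1%), and Coch as higher (21.8%) without overlap (25.5%). Otos, which entered the test through the spheres alone, had to be lower in each comparison with them. The 3 comparisons with the spheres share the sphere libraries, and those with SCDM share the SCDM libraries, so their counts do not add to one another.

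**Figure D3:**
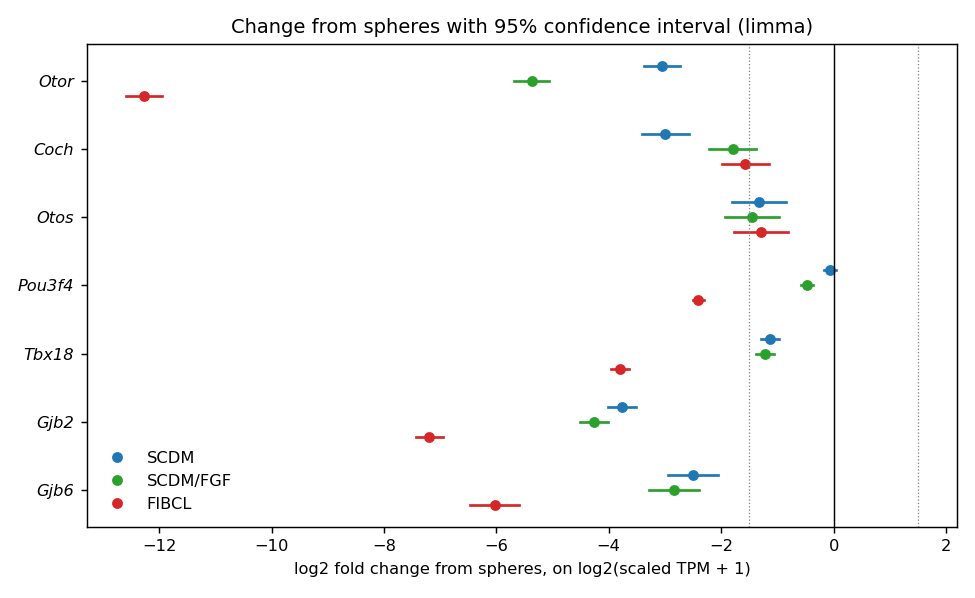
Log2 fold change of each gene from the spheres in SCDM, SCDM/FGF and FIBCL, with points for the limma estimate, bars for its 95% confidence interval and dotted lines at −1.5 and 1.5. Otor in FIBCL lies farthest out, at −12.27, and Pou3f4 in SCDM lies at −0.06.

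The relatives of each gene were counted together with it, so each family count below includes the gene itself. Of the 4 MIA family genes, Otor included, 0 passed as higher and 4 as lower in FIBCL than in SCDM, where 32.7% and 39% of all genes did (median log2 fold change −1.88, against −0.07 over all genes). Mia2 and Mia3, which serve the export of large cargo from the endoplasmic reticulum, were at 22.6 and 99.0 scaled TPM in FIBCL, from 39.3 and 131 in the spheres. Mia, a gene of cartilage, averaged 10.7 in SCDM against 1.98 in SCDM/FGF (log2 fold change −2.28, adjusted p = 0.00187, limma). Of the 4 POU class 3 genes, 1 passed as higher and 3 as lower in FIBCL than in SCDM (median −0.91), against the same background. The 3 include Pou3f4 itself, which fell furthest of them. Pou3f3 went from 37.5 in the spheres to 25.3, 18.9 and 10.5 in SCDM, SCDM/FGF and FIBCL, a log2 fold change of −1.74 in FIBCL (adjusted p = 1.12e-09), and Pou3f1 and Pou3f2 averaged at most 2.94 and 2.52 scaled TPM in any group. Of the 17 T-box genes, 7 entered the test, and 5 passed as higher and 2 as lower in FIBCL than in SCDM (median 0.59), or 3 and 2 on the deposited TPM, again beside 32.7% and 39% of all genes. Tbx18 itself was 1 of the 2 that were lower. Eomes, a T-box gene of neural progenitors, was listed at no more than 0.07 TPM outside FIBCL and averaged 12.8 there, so it entered the test through FIBCL alone and had to be among the 5. Tbx1, which also acts in the periotic mesenchyme, averaged 44.5, 17.8, 22.2 and 31.4 in spheres, SCDM, SCDM/FGF and FIBCL.

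A list of 16 further fibrocyte and otic mesenchyme genes was read the same way. In FIBCL against the spheres 3 passed as higher and 12 as lower (median log2 fold change −1.80, against −0.06 over all genes), where 32.9% and 38.7% of all genes did. Against SCDM 6 passed as higher and 10 as lower (median −1.63, against −0.07), beside 32.7% and 39% of all genes. Against SCDM/FGF the split was weaker, with 6 higher and 8 lower (median −0.39, against −0.05), beside 32.5% and 38.2%. This split depended on the scaling. On the deposited TPM Epha4 and Tbx1 did not pass there (adjusted p = 0.461 and 0.11, limma), and Emilin2 passed as lower (−0.24, adjusted p = 0.0176). In SCDM against the spheres 3 passed as higher and 10 as lower (median −0.37), beside 24.5% and 25.8%, and in SCDM/FGF 3 and 10 (median −0.52), beside 25% and 25.4%. The genes that were lower in FIBCL included Aqp1, a water channel of fibrocytes, at 147, 24.4, 97.9 and 0.130 scaled TPM in spheres, SCDM, SCDM/FGF and FIBCL (log2 fold change −7.04 from the spheres, adjusted p = 9.53e-13, limma). Slc1a3, a glutamate transporter of fibrocytes and glia, went from 77.5 to 1.60 (−4.93, adjusted p = 1.12e-11), and Cdh11, a mesenchymal cadherin, from 171 to 14.1 (−3.51, adjusted p = 6.03e-13). Tgfbi, a matrix protein gene, had the highest level of the list and averaged 1053, 570, 2413 and 159. Those that were higher in FIBCL than in the spheres were Twist1 (32.0 to 110, log2 fold change 1.74), Prrx1 (21.0 to 60.7, 1.49) and Emilin2 (0.89), of which the former pair encode transcription factors of mesenchyme (adjusted p = 3.14e-09, 1.65e-08 and 3.65e-07). Car3, a carbonic anhydrase gene, differed most between the control media and averaged 118 in SCDM and 1.01 in SCDM/FGF (log2 fold change −5.92, adjusted p = 2.34e-09).

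**Figure D4:**
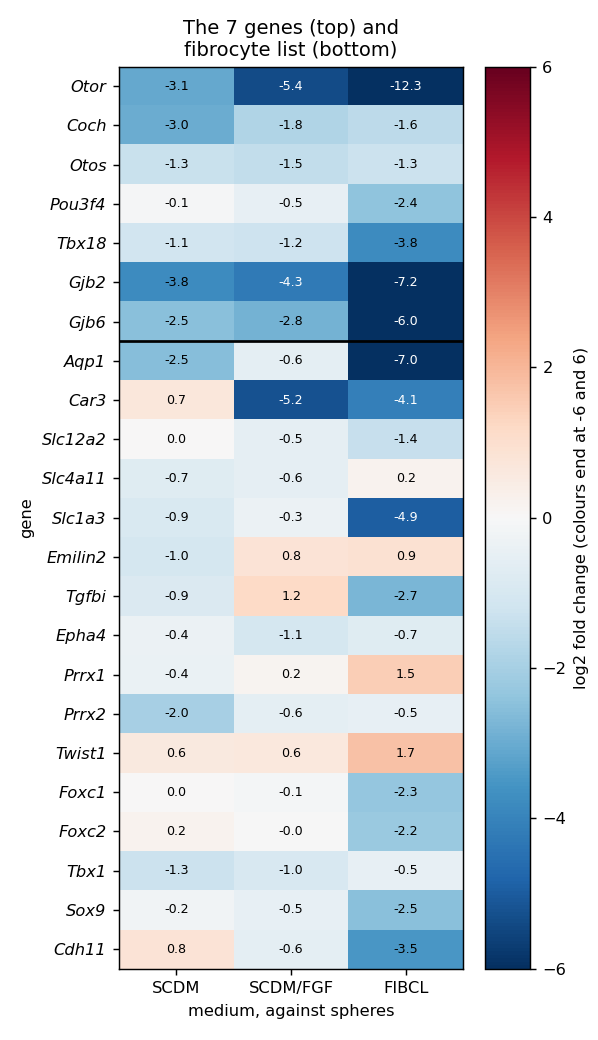
Log2 fold change from the spheres (printed in each cell) in SCDM, SCDM/FGF and FIBCL for the 7 genes above the line and the 16 further fibrocyte and otic mesenchyme genes below it, with blue for lower and red for higher. The FIBCL column holds the lowest values, such as −12.27 for Otor and −7.04 for Aqp1, but also Twist1 at 1.74.

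Of 17 genes for potassium recycling and endolymph, the process the cochlear connexins serve, 10 entered the test, Slc12a2 of the previous list among them. Cldn11, the tight junction gene of strial basal cells and of myelin, averaged 125, 22, 38.1 and 1.01 scaled TPM in spheres, SCDM, SCDM/FGF and FIBCL (log2 fold change −5.99 in FIBCL from the spheres, adjusted p = 3.11e-11, limma). Atp1b2, which encodes a beta subunit of the sodium pump, averaged 86.9 in the spheres and 8.85 in FIBCL (−3.16, adjusted p = 3.24e-11). Slc12a2, the cotransporter that loads potassium, went from 31.2 to 11.4 (−1.37, adjusted p = 5.33e-09). In FIBCL against the spheres 3 of the 10 passed as higher and 7 as lower, beside 32.9% and 38.7% of all genes. Their median log2 fold change was −1.35, against −0.06 over all genes. On the deposited TPM, however, 0 passed as higher and 8 as lower. Kcnq1 and Kcne1, the strial potassium channel genes, and Slc26a4 were below the limit, and Bsnd was listed at 0 in every library.

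For each gene, the genes with the most similar course were taken as those with the highest Pearson r of log2(scaled TPM + 1) over the 12 libraries, among genes with a mean of at least 10 scaled TPM. With 4 groups of 3 libraries such an r mostly compares group means, and it is given as a description with no p. Otor was most like Tle1 (r = 0.997), a Groucho corepressor gene, Fgf5 (0.995) and Endod1 (0.995). Fgf5 averaged 43.8, 19.1, 8.93 and 0.465 scaled TPM in spheres, SCDM, SCDM/FGF and FIBCL, the same order of groups as Otor. Coch was most like Scara3 (0.988), Timp2 (0.970), an inhibitor of matrix metalloproteases, and Vangl1 (0.962), a planar polarity gene. Scara3, like Coch, was lowest in SCDM (43.9), with 116 in the spheres, 67.8 in SCDM/FGF and 67.4 in FIBCL. Pou3f4 was most like Irx1 (0.998), an Iroquois homeobox gene at 151, 124, 81.8 and 7.59, and then Cygb (0.997) and Ctdsp2 (0.997). Tbx18 was most like Rxra (0.999), a retinoid X receptor gene, Ptgfrn (0.999) and Clic4 (0.996). Gjb2 was most like Gldn (0.994), which encodes gliomedin of the nodes of Ranvier and averaged 51.3, 11.0, 11.5 and 2.99, and then Lamp2 (0.994) and Arhgef10l (0.994). Gjb6 was most like Cabin1 (0.997), Cdk19 (0.995) and Srebf1 (0.994). For Otos, near the limit of detection, the highest were Myo6 (0.957), Pde8a (0.949) and Phf3 (0.939).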

How the data were processed

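RNA-seq of 12 mouse libraries was analysed from a deposited table of TPM values with 2 decimals. Per the methods, the authors removed adapters and poor bases (SeqPrep, Sickle), mapped reads by TopHat and estimated gene abundance by RSEM before they deposited the TPM. The submitters' processing notes also name Cufflinks, and the genome build is not given in the sources used here. Columns named FIBC were taken as FIBCL, the only matching label. Of the gene identifiers, 55141 were found in GENCODE M21.

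Each library was scaled to the average library through its log2 ratios, averaged after trimming 30% at each end, at 8434 genes that reached 5 TPM throughout. Genes of 1 TPM or more in 3 or more libraries entered limma 3.58.1 (run in R 4.3.3) with a mean-variance trend, on log2(scaled TPM + 1), in a single model of 4 groups and 6 comparisons, with Benjamini-Hochberg adjustment over all 16016 genes of a comparison. The script was tested on simulated data. TPM keeps no read number, so depth is unknown. Each library had 21625 to 22281 genes above 0, and no libraries were identical. Replicates may share a dissection, since the labels do not name animals.

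The 7 genes and all gene lists were chosen with earlier results of these data known. Named genes are the 7 genes, the genes of the lists of relatives, fibrocyte genes and potassium recycling genes with the highest level or largest fold change, and for each of the 7 the 3 most correlated genes; further list genes were named after their values were seen. Some genes of the potassium recycling list are not reported here. Alternatives covered scaling, pseudocount, filters, fold limit, samples in the model, replicate block, variance trend and each library left out. Plots used matplotlib 3.10.9 under Python 3.11.15 (with pandas 2.3.3).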

Additional observations from a re-analysis of the deposited data

Results flagged for a closer look

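Otor was flagged because its change from the spheres differed between the control media. Against the spheres it fell in both control media, and the fall was larger in SCDM/FGF than in SCDM by a log2 fold change of −2.32 (SE 0.14, adjusted p = 1.66e-07, limma). All 3 SCDM/FGF libraries (132 to 201 scaled TPM) lay below all 3 SCDM libraries (744 to 931). Cartilage and bone markers also summed lower in SCDM/FGF (86.4 to 124) than in SCDM (4460 to 4668), mostly through Col2a1 (4319 in SCDM, 34.7 in SCDM/FGF). Of the 8 tested, 4 passed as lower and 0 as higher between these media, beside 21.3% and 21.8% of all genes. From the spheres (669 to 723) to SCDM their sum rose, again mostly through Col2a1 (500 in the spheres), and Otor fell. In that comparison 3 of the markers passed as higher and 3 as lower, beside 24.5% and 25.8% of all genes. The part of these markers in the result was not tested.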

How the results depend on the processing

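All 42 log2 fold changes of the 7 genes in the 6 comparisons kept their direction and side of the threshold with median-of-ratios scaling, no filter, a pseudocount of 0.1, no variance trend and the replicate block, and 39 did on the deposited TPM. With each library left out in turn 481 did, 4 turned and 1 newly passed, Gjb6 between SCDM/FGF and SCDM. On the deposited TPM without rescaling, 2 differences that had not passed turned, Otos between FIBCL and SCDM to −0.023 and Coch between FIBCL and SCDM/FGF to −0.074, and Pou3f4 in SCDM against the spheres passed (−0.21). With a fold limit of 1, 2 of the 7 genes were changed between SCDM/FGF and SCDM, against 1. With each library left out in turn, the log2 fold change of Otos ranged from −0.065 to 0.17 for FIBCL against SCDM and from −0.20 to 0.011 for SCDM/FGF against SCDM. The former turned negative without SCDM replicate 2, SCDM replicate 3 or FIBCL replicate 3 and the latter positive without SCDM replicate 1, and the cause was not tested. The numbers of changed genes over the whole table moved more than 1.5 times with a pseudocount of 0.1 and with a fold limit of 1. The former gave 3851 in place of 2554 for FIBCL against the spheres, 1711 in place of 990 for SCDM, 1619 in place of 968 for SCDM/FGF, and 1278 in place of 777 between the control media. The latter gave 4695 in place of 2862 for FIBCL against SCDM, 4459 in place of 2686 against SCDM/FGF, 4496 in place of 2554 against the spheres, 1986 and 1942 for SCDM and SCDM/FGF against the spheres, and 1564 between the control media. Deviations of libraries with the same replicate number were not alike, with r between −0.12 and 0.098 and 0 of 18 pairs over 0.1. Such values, from 3 libraries a group, cannot show whether same-numbered libraries shared a dissection. With the number as a replicate block, 5 of the 7 genes were still changed between FIBCL and SCDM, no call of the 7 genes moved, and 2873 genes were changed in that comparison against 2862. At least 5 TPM in 3 libraries left Otos untested, as did leaving out any sphere library and, between the media, a model of only the 2 groups compared; the values that could be fitted so kept their calls.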
